A study of Mus musculus with 3 samples.

Results

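The 9 genes described here encode transcription factors that act while neural progenitors become neurons: the proneural basic helix-loop-helix (bHLH) factors Neurog1 and Neurog2, the differentiation bHLH factors Neurod1, Neurod4, Nhlh1 and Nhlh2, and the Ebf factors Ebf1, Ebf2 and Ebf3. They were chosen by symbol, with earlier results of these data known, and all 9 had a probe on the array, 11 probes in all out of 25697. The array names 16593 genes. Expression was measured in mouse HB9-GFP embryonic stem cells, whose green fluorescent protein (GFP) reports on the motor neuron gene Mnx1, also called Hb9. The stem cells had been grown on feeder cells in serum and turned toward motor neurons as embryoid bodies exposed to retinoic acid and to purmorphamine, an activator of Hedgehog signalling. All groups share this line and this treatment, and they differ in the gate they were sorted from: GFP high cells, named motor neurons in the labels, GFP low cells and GFP negative cells. Such cultures hold several kinds of cell, so a gate is a mixture. There was 1 array per population.

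Proneural factors switch a progenitor toward the neuronal fate. They pair with E proteins, bind the E-box motif CANNTG, and switch on Notch ligands, which hold neighbouring cells back through the Hes repressors, while Id proteins block them by taking up E proteins. Neurog2 works in the motor neuron progenitors of the ventral spinal cord, and the Neurod, Nhlh and Ebf factors follow the proneural step as cells leave the cell cycle and differentiate.

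Signals are given in 2 forms. The non-normalized intensity is linear and still includes background, which was estimated at a mean of 93.4 (SD 5.95) for GFP high, 96.1 (SD 6.54) for GFP low and 95.4 (SD 5.96) for GFP negative. The normalized log2 signal is background-corrected and set on a common scale over the 3 arrays. Detection means a detection p-value under 0.01. Detected probes reached down to 5.13, 5.13 and 5.14 on the log2 scale. With no replicate arrays no difference was tested, and precision is limited by the number of arrays. The spread between probes of the same gene served as a gauge. Over 2370 genes, a probe's log2 difference had an SD of 0.33 in the comparison of GFP high and negative cells, 0.26 in that of GFP high and low cells, and 0.29 in that of GFP low and negative cells. It covers probe choice and nothing that a whole array shares. In sorted populations of mixed cells, fewer cells of a type and less RNA per cell cannot be told apart.

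The sorted gene and the marker lists bear on what the gates held. Mnx1 had an intensity of 318 in GFP high cells, against 122 in GFP low and 115 in GFP negative ones. Of 8 motor neuron genes with a probe, 7 were detected, and their linear normalized signals summed to 13389, 1468 and 636. Of 13 progenitor genes with a probe, 9 were detected and summed to 7375, 12782 and 18942. Of 14 interneuron genes with a probe, 10 were detected and summed to 9413, 10152 and 3319. Such sums lean on the brightest genes, here Lhx1, at 12.69 and 12.24 on the log2 scale in GFP high and low cells. The median log2 difference of the 10 was -0.67 for GFP high against GFP low cells. Of 14 fibroblast and feeder genes with a probe, 5 were detected and summed to 307, 716 and 3020, with Col1a1, Col1a2 and Col3a1 not detected on any array. Endoderm genes, 9 of 11 detected, summed to 257, 295 and 1169.

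Neurog1 and Ebf3 were the members that differed by at least 2-fold between any populations, and they did so in different places. Neurog1 was low in GFP high cells and even between the other populations, while Ebf3 was low in GFP negative cells and even between the other populations. For each of the other 5 detected members, Neurog2, Neurod1, Neurod4, Ebf1 and Ebf2, the gene's own signal differed by less than 2-fold between the populations. Nhlh1 and Nhlh2 were not detected on any array. Promoter windows of 300 bases, from 250 bases before to 50 after the annotated start, are printed for Neurog1 and Ebf3, with E-boxes (CANNTG) in capitals, and for Neurod4, a brightly measured member, for comparison. The sequences are from RefSeq, build GRCm38.p6, and are written 5′ to 3′ along the gene's strand.
Neurog1, chr13:56252131-56252430, minus strand: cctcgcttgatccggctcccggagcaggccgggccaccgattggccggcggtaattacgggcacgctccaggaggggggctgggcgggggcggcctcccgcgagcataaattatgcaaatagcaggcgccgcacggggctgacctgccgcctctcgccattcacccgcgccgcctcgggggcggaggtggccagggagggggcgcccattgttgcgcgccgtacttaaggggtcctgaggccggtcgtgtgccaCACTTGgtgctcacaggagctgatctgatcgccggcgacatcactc
Ebf3, chr7:137314396-137314695, minus strand: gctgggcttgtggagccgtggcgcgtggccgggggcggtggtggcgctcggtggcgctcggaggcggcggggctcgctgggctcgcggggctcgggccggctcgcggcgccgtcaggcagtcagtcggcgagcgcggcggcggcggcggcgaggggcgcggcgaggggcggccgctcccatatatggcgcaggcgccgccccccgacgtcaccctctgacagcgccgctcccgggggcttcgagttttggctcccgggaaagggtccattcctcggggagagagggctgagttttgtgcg
Neurod4, chr10:130280089-130280388, minus strand: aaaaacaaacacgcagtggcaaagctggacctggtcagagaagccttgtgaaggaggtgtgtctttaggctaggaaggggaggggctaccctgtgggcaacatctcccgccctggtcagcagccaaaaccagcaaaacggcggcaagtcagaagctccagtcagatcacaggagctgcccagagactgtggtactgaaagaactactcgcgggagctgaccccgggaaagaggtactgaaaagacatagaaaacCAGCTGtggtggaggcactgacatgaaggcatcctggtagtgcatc

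The Neurog1 window held 1 E-box, CACTTG, at position 4 counted from the annotated start as 0. The Ebf3 window held 0, and 77.0% of its bases were G or C against 69.3% in the Neurog1 window and 54.7% in the printed Neurod4 window. The printed Neurod4 window held 1 E-box, CAGCTG, also at position 4, while a second Neurod4 window, from another annotated start at chr10:130280205-130280504, held 0. Windows were listed for 8 members, 10 windows in all, and Ebf2 had none listed. At least 1 E-box was found in 6 windows from 6 members, beside 72.3% of 32851 mouse promoter windows of the same length. The most were 4, in the Nhlh2 window. The form CAGATG, read on both strands as CAGATG or CATCTG, was found in the windows of Nhlh1 and Nhlh2 and in 17.2% of all windows. The form CAGCTG, which reads the same on both strands, was found in those of Neurod4 and Nhlh2 and in 16.3% of all windows. Both are forms of CANNTG and overlap with its count. An Ebf motif, TCCC followed after 2 further bases by GGGA, which also reads the same on both strands, was found in 0 of the 10 windows and in 0.904% of all windows. A match describes letters in the window and is not a known site.

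**Figure D1:**
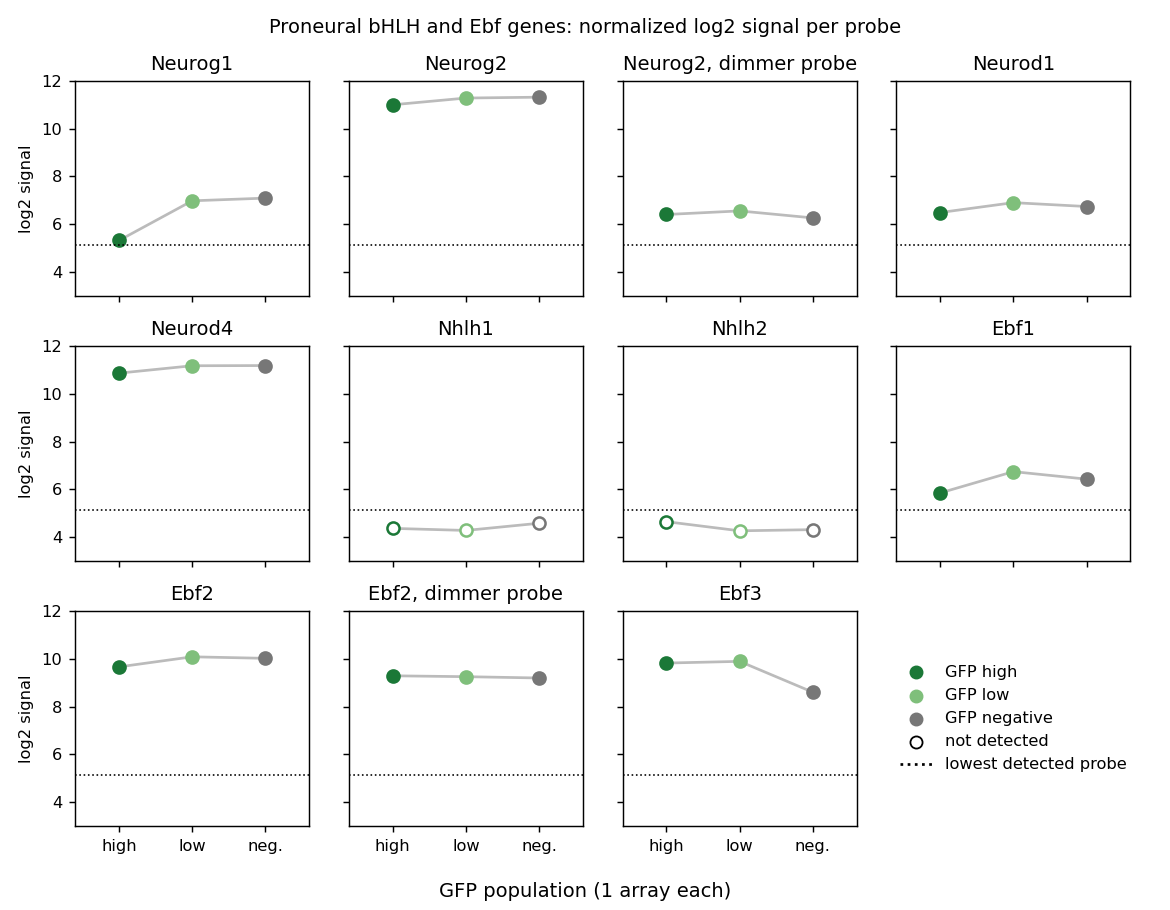
Normalized log2 signal (y axis) of each of the 11 probes of the 9 genes on the GFP high, GFP low and GFP negative arrays (x axis, 1 array each). Filled points were detected, open points were not, and the dotted line marks the dimmest detected probe. Neurog1 lay close to that line in GFP high cells, Ebf3 was lowest in GFP negative cells, and Nhlh1 and Nhlh2 lay below the line throughout.

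Neurog1, which starts neurogenesis in sensory and dorsal spinal lineages, had intensities of 116, 216 and 217 in the GFP high, low and negative populations. Its normalized log2 signals were 5.32, 6.98 and 7.09. The low value is that of GFP high cells, where the probe was still detected, at a detection p-value of 0.0075, close to the dimmest detected probe. GFP high cells were 3.42-fold below GFP negative cells and 3.16-fold below GFP low cells, log2 differences of -1.77 and -1.66. The first is 5.34 and the second 6.33 times the SD between probes. From GFP negative to GFP low cells the difference was -0.11 on the log2 scale, within that SD. Of all genes tested, 3.16% lay as far or farther below GFP negative cells as Neurog1, and 1.06% as far or farther below GFP low cells. Against GFP negative cells, 6 of 9 tested progenitor genes were lower by 2-fold or more in GFP high cells, or 5 once bounds are used, and 0 were higher. Cell cycle genes had a median log2 difference of -2.13 against GFP negative cells over 9 tested genes, all at least 2-fold lower. Over all genes tested, 9.88% were lower and 6.98% higher there. For GFP low against GFP negative cells, where Neurog1 differed by -0.11, the progenitor median was -0.41 and the cell cycle median -0.65. Of 9 and 10 tested genes, 1 in each list was at least 2-fold lower, where 2.68% of all genes were. The part of these cell types in the Neurog1 difference was not tested.

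Neurog2, the proneural factor of motor neuron progenitors, had a flatter profile. Its brightest probe had intensities of 2038, 2708 and 2632 in GFP high, low and negative cells and normalized log2 signals of 11.00, 11.29 and 11.32. GFP high cells were the lowest, by a log2 difference of -0.32 against GFP negative and -0.28 against GFP low cells. The first lies within the SD between probes and the second just above it. A much dimmer second probe, with intensities of 157, 182 and 156, gave 0.14 and -0.15 for the same comparisons, so the probes disagreed on the sign of the first. By both probes Neurog2 stayed within 2-fold over all 3 populations.

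Among the differentiation bHLH factors, Neurod4 was the one with a high signal. Neurod4, also known as Math3, had intensities of 1854, 2499 and 2395 and normalized log2 signals of 10.87, 11.18 and 11.18. It was lowest in GFP high cells, by -0.32 against GFP negative and -0.31 against GFP low cells, while GFP low and negative cells differed by -0.0078. Its profile over the arrays lay close to that of the brightest Neurog2 probe. Neurod1, known for its role in differentiating neurons and in pancreatic endocrine cells, had intensities of 162, 209 and 187 and normalized signals of 6.49, 6.90 and 6.74. Its order was GFP low, then negative, then high. GFP high and low cells were 0.41 apart on the log2 scale, 1.58 times the SD between probes, and neither neighbour pair in that order differed beyond that SD.

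Nhlh1 and Nhlh2, bHLH factors of newly formed neurons, could not be measured. The Nhlh1 probe had intensities of 92.4, 90.3 and 101.4 and detection p-values of 0.52, 0.83 and 0.13. The Nhlh2 probe had intensities of 100.6, 89.3 and 91.7 and detection p-values of 0.11, 0.88 and 0.73. These values lie at the background of each array. They are single probes, so they bound the signal of these probes and give no fold between populations.

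The Ebf factors bind DNA through a domain of their own and pair through a helix-loop-helix that lacks the basic region of the bHLH factors. Ebf3 had intensities of 933, 1081 and 472 and normalized log2 signals of 9.82, 9.89 and 8.60. Both GFP-positive populations were high and GFP negative cells were low. The signal was 2.33-fold higher in GFP high and 2.45-fold higher in GFP low than in GFP negative cells, log2 differences of 1.22 and 1.29. The second is 4.47 times the SD between probes. GFP high and GFP low cells differed by -0.07, within that SD. These 2 comparisons share the GFP negative array. Of all genes tested, 4.17% were at least as much higher in GFP high, and 1.62% in GFP low, than in GFP negative cells.

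Interneuron marker genes were at least 2-fold higher in GFP low than in GFP negative cells in 9 of 10 tested members, 8 with undetected genes at their lower bound, with a median log2 difference of 1.42. Over all genes, 3.37% were higher, with a median of -0.02. The next counts are again of interneuron genes. In GFP high against GFP negative cells 4 of 9 were higher by 2-fold or more and 1, Gata2, was lower, at -1.59. The 4 were En1 at 3.79, Pax8 at 3.03, Lhx1 at 2.50 and Pax2 at 2.27. A second detected Pax8 probe gave 1.35. Gata3 and Evx1 were at -0.61 and -0.72, and the median of the 9 was 0.81. Over all genes tested there, 6.98% were higher and 9.88% lower. Set against GFP low cells, GFP high cells had 1 of 10 interneuron genes higher and 4 lower by 2-fold or more, or 3 lower with bounds. The higher gene was Pax8, at 1.12, and the 4 lower were Gata2, Gata3, Evx1 and Tlx3, from -2.63 to -1.02. Over all genes tested there, 1.10% were higher and 4.17% lower. The interneuron median of that comparison was -0.67, while Ebf3 differed by -0.07. Of the interneuron list, Foxd3, Evx2, Lbx1 and Lmx1b were not detected on any array. Motor neuron genes were higher by 2-fold or more in GFP high cells in 7 of 7 tested, against GFP negative and GFP low cells alike. With bounds these were 6, and the medians were 2.89 against GFP negative and 2.69 against GFP low cells. From GFP negative to GFP low cells 3 of 6 motor neuron genes were higher, with a median of 0.92. Fibroblast and feeder genes had a median of -2.22 for GFP high against GFP negative cells over 5 tested members, and endoderm genes of -1.51 over 9, or -1.23 with undetected genes at their bound. Their part in the Ebf3 difference was not tested.

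Ebf1, which is also a factor of B cell and striatal development, was a dim gene. Its intensities were 132, 194 and 164 and its normalized signals 5.84, 6.74 and 6.42. GFP low cells were the highest and GFP high cells the lowest. GFP high cells were 1.86-fold below GFP low cells, a log2 difference of -0.89 and 3.40 times the SD between probes, just under 2-fold. Against GFP negative cells the log2 difference was -0.58, and GFP low cells were above GFP negative cells by 0.32, just beyond the SD between probes. In the authors' value table, and with a smaller offset, the GFP high against low difference passed 2-fold, at -1.13 and -1.11, while it was -0.62 with an offset of 50 and -0.44 with background left in.

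Ebf2 was bright and even. Its brightest probe had intensities of 842, 1220.0 and 1129 and normalized signals of 9.66, 10.09 and 10.02, and its second probe 658, 727 and 679 and 9.29, 9.25 and 9.20. The brightest probe was lowest in GFP high cells, by -0.42 against GFP low and -0.36 against GFP negative cells. The second gave 0.04 and 0.09, within the SD between probes. The probes thus disagreed by more than either difference, and a direction cannot be given for Ebf2.

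**Figure D2:**
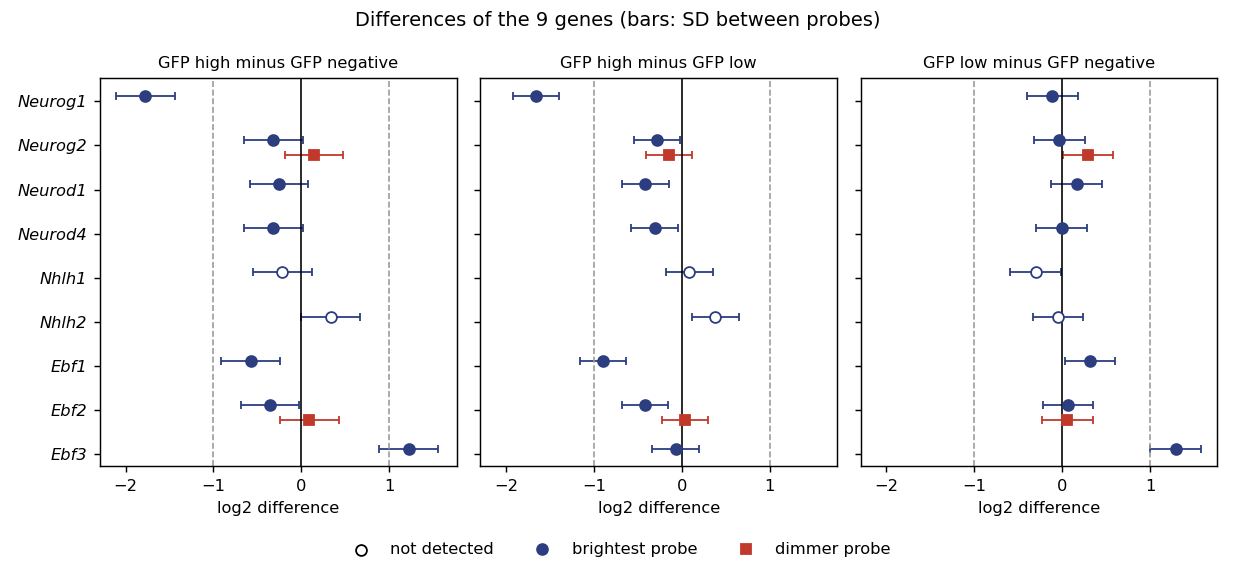
Log2 difference (x axis) of each of the 9 genes (y axis) between the GFP populations, 1 panel per comparison. Points are probes, open where the probe was detected on neither array, and dashed lines mark 2-fold. Bars are the SD between probes over 2370 genes, 1 value per comparison, and do not measure the spread of the gene shown. Neurog1 lay beyond the lower line in both comparisons of GFP high cells, and Ebf3 beyond the upper line in both comparisons with GFP negative cells.

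Counted together, 1 of the 7 detected members, Ebf3, was 2-fold or more above GFP negative cells in GFP high cells, where 6.98% of 8613 genes were, and 1, Neurog1, was 2-fold or more below them, where 9.88% were. The median log2 difference of the 7 was -0.32, beside 0.02 over all genes tested. For GFP high against GFP low cells, 0 of 7 members were at least 2-fold higher, where 1.10% of 8427 genes were, and 1, again Neurog1, was lower, where 4.17% were. All 7 had a negative difference by their brightest probe, with a median of -0.41 beside 0.03 over all genes, of which 53.5% had a positive difference. Of the 7, Ebf3 lay within the SD between probes, and the second probe of Ebf2 was at 0.04. For GFP low against GFP negative cells, 1 of 7 was at least 2-fold higher, Ebf3, where 3.37% of 8516 genes were, and 0 were lower, where 2.68% were. The median was 0.06 beside -0.02. With so few members, counts of 0 or 1 are not set apart from these shares. The comparisons share arrays and are not independent of each other.

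Among the partners and inhibitors of the members, Id1 was the 1 gene that reached 2-fold. Of the E proteins, Tcf4 had normalized log2 signals of 11.76, 12.13 and 11.92 in GFP high, low and negative cells, and Tcf12 had 8.71, 8.60 and 8.71. Neither was 2-fold apart in any comparison, and another detected probe of Tcf12 gave -0.84 for GFP high against negative cells. Tcf3 had no probe under that symbol in the annotation used here. Of the Id inhibitors, Id1 was lowest in GFP high cells, with signals of 7.30, 7.98 and 8.71, and differed 2.66-fold from GFP negative cells. Id2 ran the other way, with 8.00, 7.50 and 7.22, and stood 1.72-fold above GFP negative cells in GFP high cells. Id3 and Id4 stayed within 1.47-fold and 1.04-fold over all comparisons. The median of the 4 Id genes was -0.14 for GFP high against GFP negative cells, beside 0.02 over all genes. Of the 4, 1 was at least 2-fold lower there, where 9.88% of all genes were.

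Of 16 other neural bHLH factors with a probe, 8 were detected on at least 1 array. Those not detected include the dorsal factor Atoh1, the cerebellar and pancreatic factor Ptf1a, and Neurog3 and Neurod6, relatives of the members. Bhlhe22 had no probe under that symbol in the annotation used here. Of 6 tested for GFP high against GFP negative cells, 1 was higher by 2-fold or more, which becomes 0 once undetected genes are set at their bound. A further 1 was lower, and the median was 0.15. Over all genes tested, 6.98% were higher and 9.88% lower. Against GFP low cells, 2 of 8 factors were lower and 0 higher in GFP high cells, where 4.17% and 1.10% of all genes were. Their median was -0.20, and -0.07 with bounds. Tal1, a factor of V2b interneurons, had signals of 7.23, 9.65 and 8.78. Olig3, a factor of dorsal progenitors, was detected in GFP low cells only, with intensities of 98.8, 159.5 and 111.2, and was at least 2.11-fold lower in GFP high and at least 2.10-fold lower in GFP negative cells. Bhlhe23 was detected in both GFP-positive populations, with intensities of 141.4, 129.5 and 88.2, and was at least 1.92-fold above GFP negative cells in GFP high cells.

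The Hes and Hey repressors oppose proneural genes. Of 6 tested for GFP high against GFP negative cells, 4 were lower by 2-fold or more and 0 higher. Of all genes tested for this comparison, 9.88% were lower and 6.98% higher. The median log2 difference of the 6 repressors was -1.50, beside 0.02 over all genes. Their median became -1.35 once undetected genes were set at their bound. With background left in 2 of 6 were lower, and the median ranged from -1.99 to -0.53 over the alternatives, the latter with undetected genes counted in. Hes5 had intensities of 691, 3099 and 5831 in GFP high, low and negative cells, and Hes1 of 150.2, 286 and 524. Both were lowest in GFP high and highest in GFP negative cells. Hes2 was not detected in GFP high cells and was at least 3.04-fold below GFP negative cells, and Bhlhe40 was 2.15-fold below them. Hes6, which is induced by proneural factors and counters Hes1, had signals of 10.86, 11.70 and 11.65. It was the lowest in GFP high cells by -0.79 against GFP negative and -0.85 against GFP low cells, with its other probes between -0.94 and -0.73. From GFP negative to GFP low cells Hes6 differed by 0.06, within the SD between probes.

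Notch ligands and modulators were mixed. In GFP high against GFP negative cells, 2 of 12 tested were higher by 2-fold or more and 1 was lower. Their median was 0.15. Over all genes tested, 6.98% were higher and 9.88% lower, with a median of 0.02. Such small counts are not set apart from these shares. Dll3, a ligand induced by proneural factors, had signals of 8.46, 7.85 and 7.12, and Dll1, the other such ligand, had 8.81, 8.47 and 9.04, within 2-fold throughout. Dner, a neuronal Notch ligand, had signals of 9.69, 9.93 and 8.45, the order of Ebf3, and was 2.79-fold higher in GFP low than in GFP negative cells. Nrarp, a feedback inhibitor that Notch signalling switches on, had 10.02, 11.31 and 12.21 and lay 4.57-fold below GFP negative cells in GFP high cells. Jag1 was highest in GFP low cells, with intensities of 102.1, 155.9 and 120.1, and at least 2.01-fold below that level in GFP high cells.

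**Figure D3:**
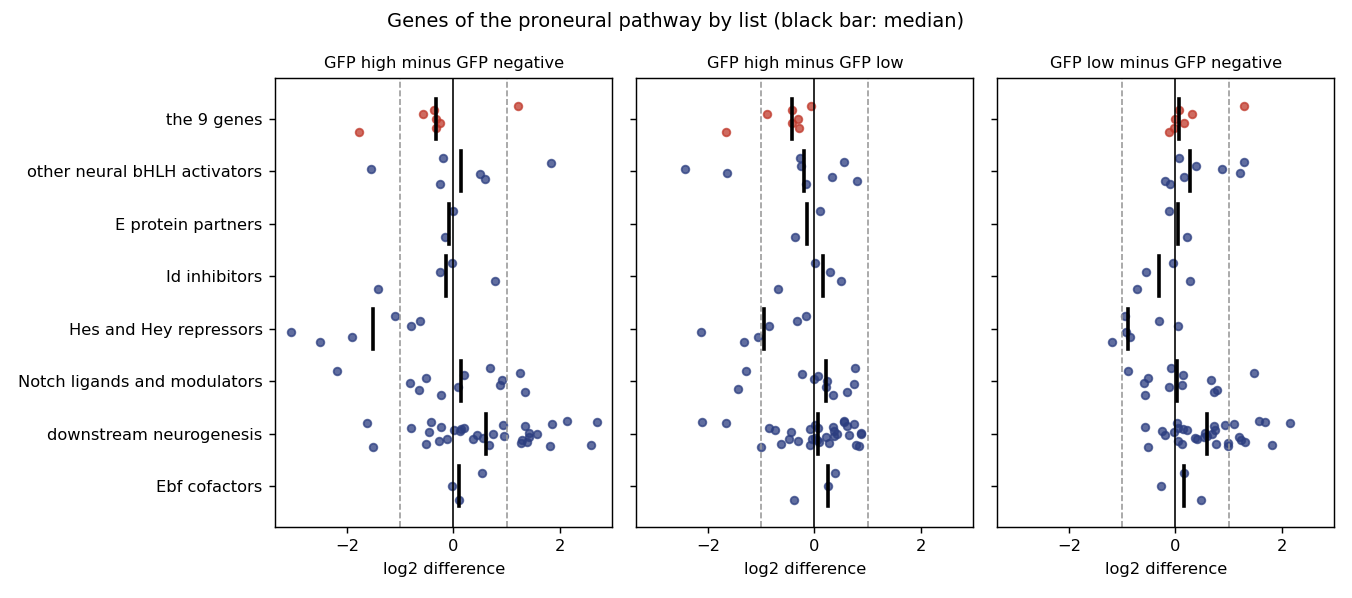
Log2 differences (x axis) between the GFP populations for the tested genes of each list (y axis), 1 panel per comparison, with 1 point per gene by its brightest probe, black bars at medians and dashed lines at 2-fold. For GFP high against negative cells the Hes and Hey repressors had a median of -1.50 and the downstream neurogenesis genes a median of 0.61, while the 7 detected members had a median of -0.32.

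Of the genes that act after the proneural step, 12 of 32 tested for GFP high against GFP negative cells were higher by 2-fold or more and 2 were lower. Their median was 0.61, and 0.50 once undetected genes were set at their bound. Over all genes tested, 6.98% were higher and 9.88% lower, with a median of 0.02. For GFP low against GFP negative cells 8 of 31 listed genes were higher and 0 lower, with a median of 0.59. Over all genes these were 3.37%, 2.68% and -0.02. For GFP high against GFP low cells 0 of 32 listed genes were higher and 3 lower, with a median of 0.07. Over all genes these were 1.10%, 4.17% and 0.03. Insm2, Btg2, Lzts1, Eomes and the neuronal tubulin gene Tubb3 had a probe but were not detected on any array. Sox11, Prdm12 and Prdm13 had no probe under these symbols in the annotation used here. Neurl1a, Hes6, Dll1 and Dll3 also belong to other lists named above.

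Within this list, a first set of genes was highest in GFP high and lowest in GFP negative cells. Myt1 and Myt1l, zinc finger factors that favour the neuronal state, had signals of 12.30, 11.46 and 10.48 and of 8.54, 7.77 and 5.97, which puts GFP high cells 3.52-fold and 5.96-fold above GFP negative cells. Sox4, which promotes neuronal gene expression, was 2.95-fold higher, the RNA-binding factor gene Elavl4 3.59-fold and the adhesion gene Nfasc 2.66-fold, although a second Nfasc probe gave a log2 difference of 0.77. The nicotinic receptor subunit gene Chrnb2 was 4.39-fold higher and the tubulin-binding stathmin gene Stmn2 had signals of 12.28, 11.73 and 9.59. A second set had the same order by the brightest probes but less between GFP high and low cells, at most 0.28, for Cbfa2t3. Like Ebf3, these genes were low in GFP negative cells. Cdkn1c, a cell cycle inhibitor, had signals of 13.72, 13.68 and 12.44. Runx1t1, a corepressor, had 10.24, 10.16 and 8.86, and its relative Cbfa2t3 8.02, 7.74 and 6.75. The microtubule gene Dcx had 11.61, 11.39 and 10.19.

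The 2 genes lower in GFP high than in negative cells were Insm1 and Sstr2. Insm1, a zinc finger factor of neurogenic progenitors and newborn neurons, had signals of 10.56, 11.56 and 12.07 and differed 2.85-fold between GFP high and GFP negative cells. The somatostatin receptor gene Sstr2 was not detected in GFP high cells, with intensities of 104.1, 174.1 and 164.4, and was at least 2.46-fold lower there than in GFP negative cells and at least 2.50-fold lower than in GFP low cells. Nrn1, which promotes neurite growth, was highest in GFP low cells, with signals of 5.06, 7.17 and 5.49, and at least 4.12-fold below that level in GFP high cells, where it was not detected. The Ebf cofactor list gave 0 genes 2-fold apart of 3 tested, with Zfp423, a zinc finger partner of Ebf factors, at 6.40, 6.80 and 6.31 and Zfp521 at 9.13, 8.88 and 9.15.

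The genes whose profile over the 3 arrays was nearest to a member's were sought for members with a range of at least 1 on the log2 scale, which were Neurog1 and Ebf3. Likeness was the Euclidean distance between mean-centred log2 signals, over 3 arrays and 8750 other genes detected on at least 1 array. With 3 arrays many genes lie close, so the names are a description. Nearest to Neurog1 were Cd82 at a distance of 0.041, Rnf138rt1 at 0.045 and Ccnd1, cyclin D1, at 0.064. Cd82 was at 5.02 in GFP high cells, under the lowest detected signal of that array, so its likeness leans on a background value. Ccnd1 had signals of 11.67, 13.41 and 13.53. Nearest to Ebf3 were Iqsec3 at 0.016, the retinoid-binding gene Crabp1 at 0.046 and the zinc transporter gene Slc30a3 at 0.048. Slc30a3 was at 4.46 in GFP negative cells, under the lowest detected signal of that array, and has the same limit. Iqsec3 had signals of 7.28, 7.33 and 6.05.

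The size of the Neurog1 difference changed with how background was handled, and its GFP high signal lay near background. For GFP high against GFP negative cells the log2 difference ranged from -2.33 in the authors' value table to -0.86 with background left in, where it was under 2-fold. The difference kept its sign in all 11 alternatives. Those on probe choice and detection could not change it, as Neurog1 had 1 probe, detected on every array. Ebf3, far above background on every array, moved less, from 1.07 to 1.25 for GFP high against GFP negative cells.

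**Figure D4:**
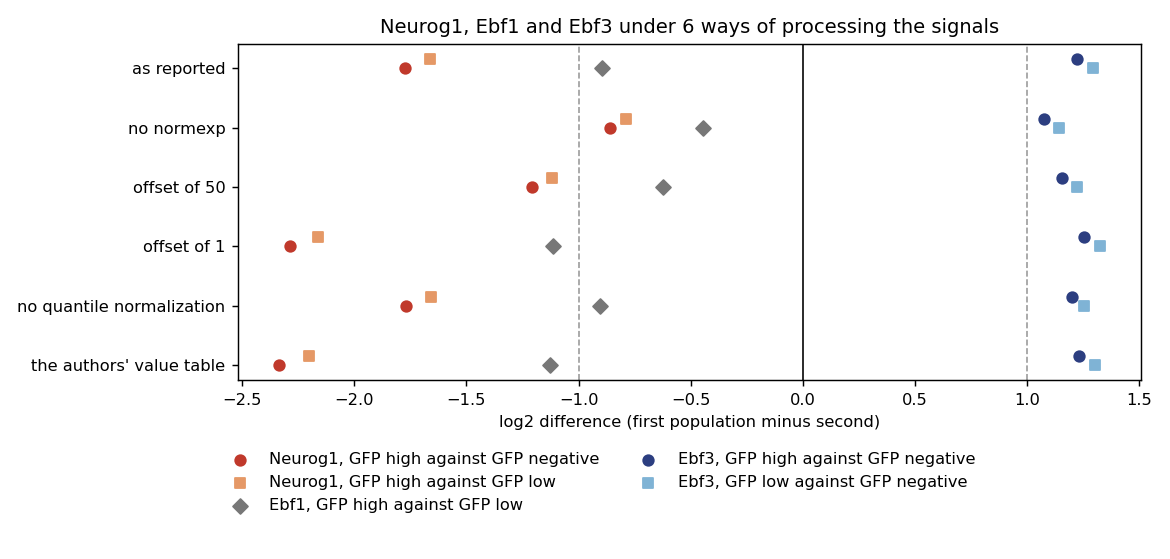
Log2 difference (x axis) of Neurog1, Ebf1 and Ebf3 under 6 ways of processing the signals (y axis), with dashed lines at 2-fold. Neurog1 moved between -2.33 and -0.86 for GFP high against negative cells, and Ebf3 stayed between 1.07 and 1.25.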

How the data were processed

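Biotin-labelled RNA from 3 sorted populations was measured on 1 Illumina bead array each, and groups follow the GFP level in the labels. The authors deposited a linear intensity per probe without normalization, and a detection p-value per probe and array, per the file headers. Each detection p-value column was matched to the intensity column it follows, and the p-values fell as that intensity rose. The submitters' processing notes name GenomeStudio and no version. A second table from the authors, deposited as linear intensity with a floor of 10 that holds 47.5% of its values, served as an alternative, and how it was background-subtracted and normalized is not given in the sources used here.

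Intensities were background-corrected with normexp from the detection p-values, with an offset of 16 that understates folds of dim genes, then quantile normalized and log2-transformed (limma 3.58.1, R 4.3.3). Python 3.11.15, numpy 2.4.6 and pandas 2.3.3 did the rest. Of 25697 probes, 23978 had 1 symbol, 0 several and 1719 none listed. The brightest probe stood for a gene. Genes detected (p-value under 0.01) on at least 1 of the 2 arrays compared were counted at 2-fold. A gene undetected on the dimmer array is given as at least N-fold, against the higher of its own signal and the lowest detected signal there. The steps were tested on simulated data. Only bright probes were changed there, by differences well past 2-fold, so dim genes and calls near 2-fold were not covered.

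The members and gene lists were chosen with earlier results of these data known. All 9 members were named, with list genes past 2-fold on any comparison, all E protein and Id genes, and the 3 nearest genes in profile. Protein sequences were not used here. Sequences came from RefSeq, matched by symbol for 8 of 9 members.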

Additional observations from a re-analysis of the deposited data

How the results depend on the processing

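Of 11 alternatives, 3 moved a member count. Those on probe choice and detection could not move Neurog1, Ebf1 or Ebf3, each with 1 probe that was detected on every array. Without the normexp step, 0 members were lower by 2-fold or more in GFP high cells, against GFP negative and against GFP low cells alike, with Neurog1 at -0.86 and -0.79. With an offset of 1 and in the authors' value table, 2 members passed 2-fold below GFP low cells in GFP high cells, Neurog1 and Ebf1. No detected member past 2-fold changed sign, while the second probes of Neurog2 and Ebf2 gave other signs than their brightest. Over all genes, 601 were higher and 851 lower by 2-fold or more for GFP high against GFP negative cells. These numbers became 259 and 436 when normexp was left out and 355 and 567 with an offset of 50. For GFP high against GFP low cells they were 93 and 351, becoming 37 and 145 without normexp, 49 and 198 with an offset of 50, and 277 and 564 with an offset of 1, and higher genes made up 33.3% of calls in the value table beside 20.9%. For GFP low against GFP negative cells they were 287 and 228, becoming 105 and 77, 165 and 107, and 491 and 510.0 in the same order, and 513 and 544 in the value table. The value table gave 904 and 1186 for GFP high against GFP negative cells. The Hes and Hey median for these cells ranged from -1.99 to -0.53. The other neural bHLH median turned to -0.21 with a detection p-value under 0.05, and for GFP high against GFP low cells to 0.34 over genes detected on both arrays. With the second brightest probe the E protein and Ebf cofactor medians were -0.50 and 0.47 for GFP high against GFP negative cells, and -0.51 and -0.14 against GFP low cells. The cause of these shifts was not tested. No paired analysis was possible because each population has 1 array. Nhlh1 and Nhlh2 stayed at background, so nothing can be said of their levels.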
